A study of Danio rerio with 10 samples.

Results

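The genes described here are the 200 gene IDs whose share of the reads increased most between 2 and 5 days post-fertilization (dpf) in wild-type (WT) zebrafish, out of 36351 IDs in the count files. Members were chosen by ranking IDs on log2 of mean CPM (counts times 1000000 over the library's total on genes) plus 0.5 at 5 dpf over mean CPM plus 0.5 at 2 dpf, taken from the WT libraries. A block of 105 consecutive IDs was left out of the ranking, so 36246 IDs were ranked, and 2 of the left-out IDs would otherwise have been among the 200. The files carry the IDs of a zebrafish transcriptome annotation without gene names, positions, lengths or sequences, and 0 IDs matched the name tables at hand. Only 4 IDs are therefore printed, no member is given a function or a sequence, and the other members are called by their rank. The labels of tissue and genotype could not be checked against marker genes or the level of ebf3a for the same reason.

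The libraries came from a zebrafish line with a CRISPR/Cas9-induced out-of-frame mutation of ebf3a in the AB strain, and animals were sorted by genotype from tissue of the posterior body. There were 2 libraries in each of 5 groups, which were ebf3a homozygotes at 5 dpf, WT at 5 dpf, ebf3a homozygotes at 2 dpf, ebf3a heterozygotes at 2 dpf, and WT at 2 dpf. Each library was polyA RNA from a pool, labelled head with eyes from 10 to 12 larvae at 5 dpf and upper body with eyes from 15 to 20 embryos at 2 dpf. Another label gives 6 dpf for the pools of 10 to 12 that the sample names place at 5 dpf. The authors describe taking RNA from the anterior part of the body at both ages, though the tissue labels differ. Age, labelled tissue and pool size changed together, so they cannot be told apart. The reads counted on genes came to between 30070283 and 47797511 per library, so that 3 counts corresponded to between 0.0628 and 0.0998 CPM. No source used here says that pools of one group came from separate clutches, so p-values measure the spread between these pools, which may be technical. In bulk RNA, fewer cells of a type and less RNA per cell cannot be told apart.

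Between these ages the zebrafish turns from an embryo, often still in its chorion, into a free-swimming larva. Photoreceptors, lens, skeletal muscle, skin and the digestive organs mature over this time, and each of these tissues is known for making a few proteins in very large amounts. Ebf3a belongs to the early B cell factor family of transcription factors, which act in the differentiation of neurons. Which of the members belong to which of these tissues was not analysed here, because the IDs could not be paired with names.

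At 5 dpf the 200 members held over 10% of all counts on genes, and at 2 dpf they held a trace. Their summed level was 107504 and 126854 CPM in homozygotes and 124958 and 136956 CPM in WT at 5 dpf. At 2 dpf it was 621 and 627 CPM in homozygotes, 669 and 716 CPM in heterozygotes, and 659 and 679 CPM in WT. As a share of the counts this was 10.8% (95% Wilson interval 10.7 to 10.8) and 12.7% (12.7 to 12.7) in homozygotes and 12.5% and 13.7% in WT at 5 dpf, against between 0.0621% and 0.0716% in the 6 libraries of 2 dpf. These intervals and the floors given for 0 counts cover counting error only. In homozygotes, whose libraries did not choose the members, the mean sum at 5 dpf was 187.7-fold that at 2 dpf (117179 ± 13683 against 624 ± 4.05 CPM, SD, n = 2 each). In WT the same fold was 195.7, which is a description, since these libraries chose the members.

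**Figure D1:**
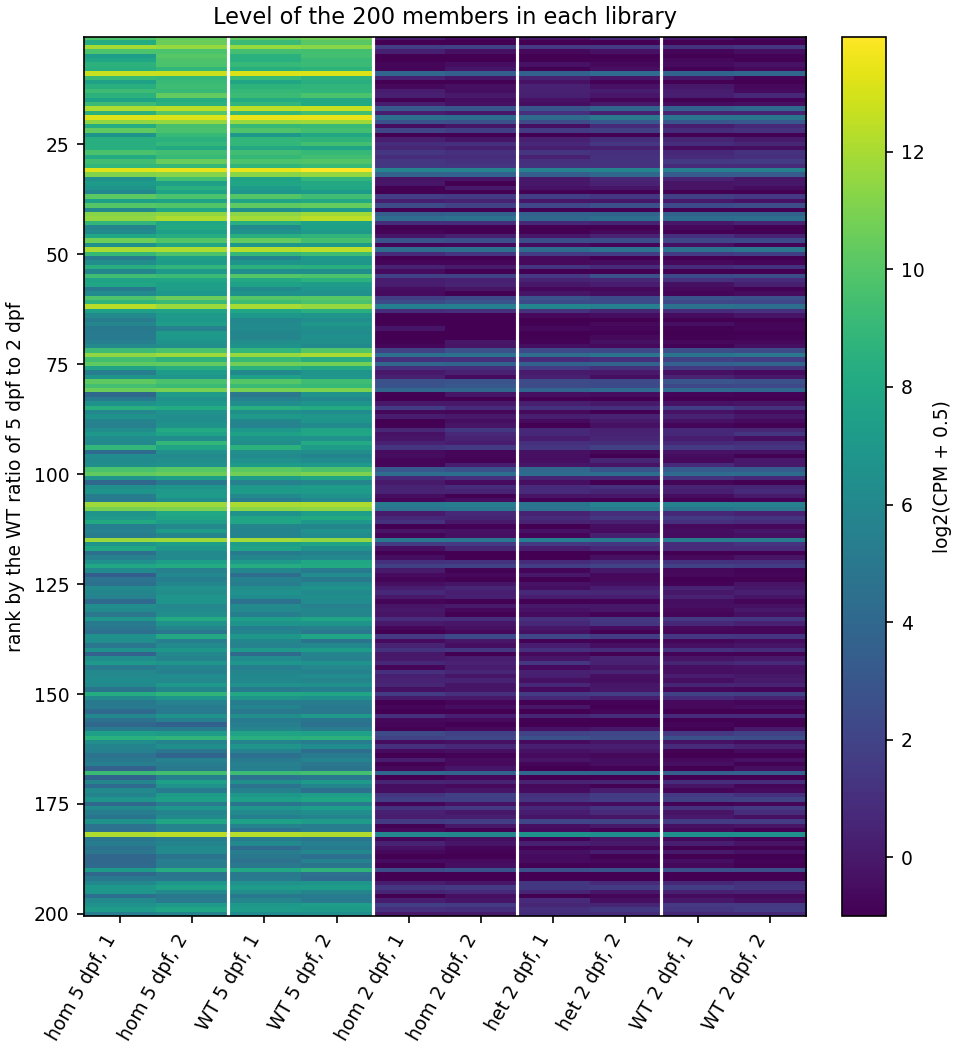
Level of each member as log2(CPM + 0.5), shown by colour, with 1 row per member in order of rank and 1 column per library. Groups run from homozygotes at 5 dpf on the left to WT at 2 dpf on the right. All 200 members were higher in each of the 4 libraries of 5 dpf than in any of the 6 libraries of 2 dpf, and the brightest rows are scattered over the ranks. The WT libraries shown chose the members by this rise.

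The sum was unevenly divided. The 5 members with the most counts held 32.6% and 29.9% of the members' counts in homozygotes of 5 dpf, against 34.1% and 35.6% in WT of that age, and the 10 with the most held between 45.2% and 52.2%. Over the members, mean CPM in homozygotes at 5 dpf ran from 13.9 to 10338, with quartiles of 60.6, 118.4 and 410.0, and in WT from 26.1 to 13489, with quartiles of 58.7, 132.1 and 429.2. For scale, the median over the 28999 IDs with any count in these homozygous libraries was 6.09 CPM. All 200 members lay above that median and 154 of them (77%) lay in the highest 10% of those IDs. Among the 100 IDs with the most counts, 18 and 24 were members in homozygotes at 5 dpf and 21 and 21 in WT at 5 dpf, against 0 in each library of 2 dpf. CPM is a share of reads and is not scaled to length, so a high value of one member against another can come from a longer transcript as well as from more molecules.

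The member with the most reads ranked 31. It stood at 9469 and 11207 CPM in homozygotes and 11065 and 15914 CPM in WT at 5 dpf, and between 43.8 and 53.1 CPM in the 6 libraries of 2 dpf. The next, ranked 19, stood at 9364 and 8817 CPM in homozygotes and 11435 and 11432 CPM in WT at 5 dpf. Both homozygous libraries lay below both WT libraries in this member. Rank 9 followed, with 6605 and 7005 CPM in homozygotes and 9261 and 8999.98 CPM in WT, again without overlap. At 2 dpf rank 9 was at 14.6 and 11.1 CPM in homozygotes, 12.3 and 18.2 CPM in heterozygotes, and 13.7 and 15.1 CPM in WT, where the 3 genotypes overlapped. None of these 3 members was called between homozygotes and WT at 5 dpf. Rank 17 had 4393 and 5545 CPM in homozygotes and 5719 and 6685 CPM in WT at 5 dpf. Rank 49 had 4224 and 4413 CPM in homozygotes and 5007 and 5715 CPM in WT at that age. In both members the homozygous libraries were the lower without overlap, whereas rank 42 overlapped, at 2988 and 4458 CPM in homozygotes and 3769.5 and 5747 CPM in WT. Ranks 182, 62 and 3 were also among the members with the most reads. Their values are given further on, and their genotypes overlapped at 5 dpf. The share of IDs with both homozygous libraries below both WT libraries was not counted. Homozygous replicate 1 alone lay below both in 74% of members and 34.8% of IDs at a mean of at least 1 CPM. For homozygous replicate 2 the shares were 19.5% and 20.4%. The WT libraries of 5 dpf also chose the members, which favours lower values in homozygotes.

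The highest ranks held members of quite different levels. Rank 1 (LL0000001593) stood at 854 and 1367 CPM in homozygotes and 1270.3 and 1683 CPM in WT at 5 dpf. At 2 dpf it was at 0.565 and 0.159 CPM in homozygotes, 0.375 and 1.01 CPM in heterozygotes, and 0.485 and 0.167 CPM in WT. In homozygotes its log2 ratio by the same formula was 10.33. Rank 2 (LL0000022709) stood at 309 and 1541 CPM in homozygotes and 584 and 1108 CPM in WT at 5 dpf, and had 0 counts in all 6 libraries of 2 dpf. Both libraries of one genotype thus differed more than the genotypes did in this member. Against a floor of 3 counts over both homozygous libraries of 2 dpf together (0.0488 CPM), its mean in homozygotes at 5 dpf was at least 18956-fold higher. Rank 3 was more abundant and more even, at 3948 and 3216 CPM in homozygotes and 3276 and 2478 CPM in WT at 5 dpf, and between 1.80 and 3.15 CPM in all libraries of 2 dpf.

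Ranks 5 and 6 resembled rank 2. Rank 5 had 166 and 1074 CPM in homozygotes and 376 and 722 CPM in WT at 5 dpf, and was at 0 in every library of 2 dpf but WT replicate 2, where it had 0.0628 CPM. Rank 6 had 234 and 895 CPM in homozygotes and 362 and 565 CPM in WT at 5 dpf, and at most 0.116 CPM at 2 dpf. In ranks 2, 5 and 6 the homozygous libraries lay on either side of both WT libraries. Rank 7 had 388 and 861 CPM in homozygotes and 528 and 587 CPM in WT, in the same order. Rank 8 had 338 and 482 CPM in homozygotes and 328 and 409 CPM in WT, and rank 10 had 534 and 477 CPM in homozygotes and 548 and 384 CPM in WT, with overlap in both. Rank 4 was even across the libraries of 5 dpf, at 849 and 829.5 CPM in homozygotes and 726 and 692 CPM in WT, both homozygous libraries being the higher.

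The ranking itself had no natural break at its end. Rank 200, the last inside, had a WT log2 ratio of 5.684 and the first ID outside had 5.677. The last 5 members spanned 5.71 to 5.68 and the 5 IDs just outside 5.68 to 5.66. The WT ratios that chose the members ran from 5.68, a 51.4-fold change, to 10.80, with a median of 6.62, a 98.1-fold change.

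In homozygotes, which took no part in the choice, the same ratio ran from 4.76 (27.0-fold) to 10.85, with a median of 6.63 (98.9-fold), where the median over the 19892 IDs at a mean of at least 1 CPM in these libraries was 0.23. Both homozygous libraries of 5 dpf lay above both of 2 dpf in all 200 members. A choice by so large a rise in WT makes this order likely, and its share over all IDs was not counted. The narrowest gap over all libraries was that of rank 173, whose lowest library at 5 dpf was 17.9-fold above its highest at 2 dpf. In edgeR's quasi-likelihood test between homozygotes at 5 and 2 dpf, with Benjamini-Hochberg adjustment over 23358 IDs, all 200 members were higher at 5 dpf, with adjusted p-values between 6.65e-07 and 0.000898. Of all IDs tested, 33.1% were called higher. Of the members, 106 had at least 10 counts in every homozygous library. Among the rest, those with few counts at 2 dpf passed the filter on low counts through their 5 dpf libraries. All were chosen by a large rise in WT, so the count of 200 says nothing about the members beyond the choice. Of the 200 IDs that ranked highest in homozygotes by the same formula, 170 were members, which is 85% of either list. The 30 members outside that list were close to it, 26 within 100 places of its end and 4 beyond, the farthest at rank 371.

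The ratios of both genotypes were close to each other in most members. The log2 ratios of homozygotes and WT lay within 0.5 of each other in 138 members, and the ratio was the larger in homozygotes in 93 of 200. Across members, which are not independent replicates, the Pearson correlation of both ratios was 0.927 (n = 200). Each ratio is a mean of 2 libraries per age, and members with few counts at 2 dpf owe their ratio partly to the added 0.5 CPM.

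The level at 2 dpf differed widely among the members. At 2 dpf, 28 and 30 members had 0 counts in homozygotes, 22 and 23 in heterozygotes, and 23 and 22 in WT. A level of 1 CPM or more was reached by 69 and 69 members in homozygotes, 76 and 75 in heterozygotes, and 78 and 77 in WT. The homozygous libraries were the shallowest and the WT libraries the deepest at this age, and the part of depth in the counts of members at 0 was not tested. A level of 10 CPM or more was reached by 17 or 18 members in each of the 6 libraries. At 5 dpf every member stood at 10 CPM or more in all 4 libraries.

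**Figure D2:**
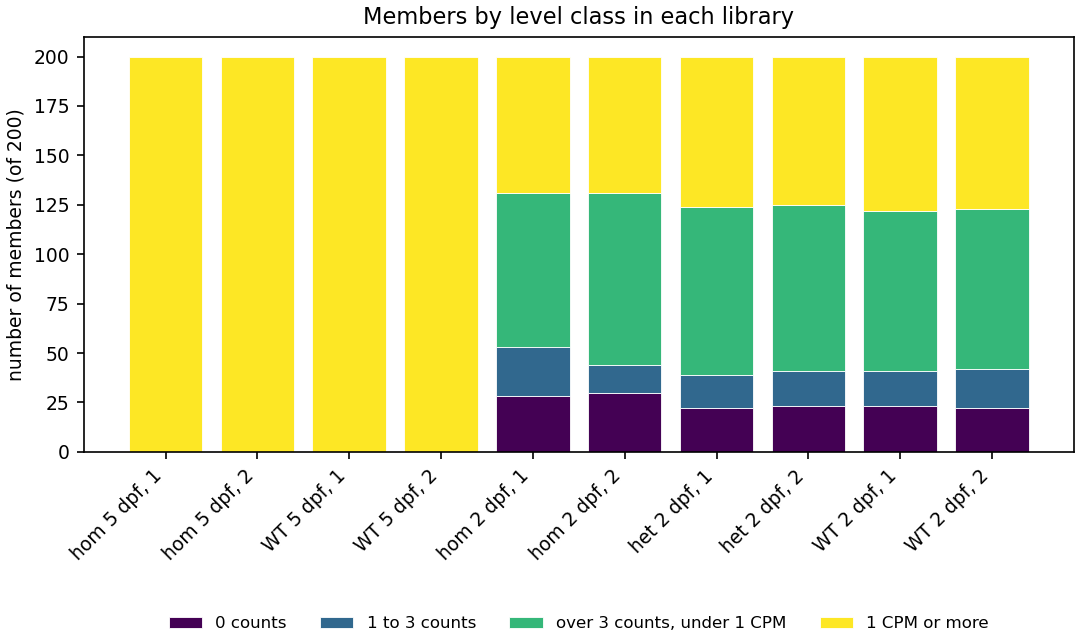
Number of members at each level in each library, as stacked bars that add to 200, from 0 counts at the bottom to 1 CPM or more at the top. In the 4 libraries of 5 dpf all 200 members were at 1 CPM or more, and in the 6 libraries of 2 dpf between 69 and 78 were.

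Over all 6 libraries of 2 dpf, members were sorted into 3 classes of level, with cutoffs set at 3 counts and at 1 CPM. No age between 2 and 5 dpf was sampled, so the time of onset was not measured. First, 13 members had at most 3 counts in every library, and 7 of these had 0 counts in all 6, which leaves their presence at 2 dpf undetectable at this depth. Second, 56 members were already at 1 CPM or more in every library, 16 of them at 10 CPM or more. The remaining 131 lay between. In homozygotes the median log2 ratio of 5 to 2 dpf was 7.35 in the 13 members, 7.03 in the 56 and 6.46 in the 131. Presence at 2 dpf was wider than the 56, as 120 members had more than 3 counts in every library of that age. The 56 members at 1 CPM or more in every library of 2 dpf were, as a set, the more abundant at 5 dpf. Their median of mean CPM was 719.6 in homozygotes and 763 in WT, against 81.2 in homozygotes and 68.2 in WT for the 13 near 0 and 79.0 in homozygotes and 83.4 in WT for the 131 between. The 56 members held 80.9% of the summed CPM of homozygotes at 5 dpf, the 131 held 17.0% and the 13 held 2.14%. Since the choice was by a ratio with 0.5 CPM added, a member at 1 CPM or more at 2 dpf had to be high at 5 dpf to be chosen, so the order of these levels follows in part from the ranking.

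The homozygous libraries of 5 dpf differed from each other more in the members than in other genes. Homozygous replicate 2 was the higher in 157 of 200 members, with a median fold of replicate 2 over replicate 1 of 1.49, against 1.01 over the 20382 IDs at a mean of at least 1 CPM. It was over 2-fold higher in 64 members (32%), against 5.47% of those IDs, and over 2-fold lower in 2. The folds ran from 0.444 in rank 94 to 8.92 in rank 82. Rank 82 had 16.4 and 146 CPM in homozygotes, against 29.6 and 97.2 CPM in WT, while rank 94 had 470.4 and 209 CPM in homozygotes, against 386 and 151 CPM in WT. In WT the difference ran in the same sense. WT replicate 2 was the higher in 120 members, with a median fold of 1.12 against 1.02 over all those IDs, and it was over 2-fold higher in 10 (5%, against 3.49%).

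Most members over 2-fold higher in homozygous replicate 2 were also higher in WT replicate 2, but few by over 2-fold. Of these 64 members, 60 were higher in WT replicate 2 by any amount, and 9 were over 2-fold higher in both genotypes. The same shares over all IDs were not counted. Across the 200 members the Pearson correlation of the replicate difference (replicate 2 minus replicate 1 in log2 of CPM plus 0.5) in homozygotes and in WT was 0.764, against 0.610 across the 20182 other IDs at this level. For the members, the median absolute log2 fold of one replicate over the other was 0.69 in homozygotes, against 0.40 in WT. Over all IDs at this level it was 0.24 in homozygotes and 0.26 in WT. At 2 dpf the same measure, over members at a mean of at least 1 CPM, was 0.22 in homozygotes (69 members), 0.39 in heterozygotes (73) and 0.20 in WT (76). At 5 dpf it covered all 200 members, so the ages were not compared on the same members. The spread at 5 dpf also went with the level at 2 dpf. The median fold of homozygous replicate 2 over replicate 1 was 3.21 in the 13 members near 0 counts at 2 dpf, 1.62 in the 131 between and 1.18 in the 56 already at 1 CPM, while in WT the folds were 1.27, 1.11 and 1.10. Whether the pools differed in exact age, dissection or handling was not tested.

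**Figure D3:**
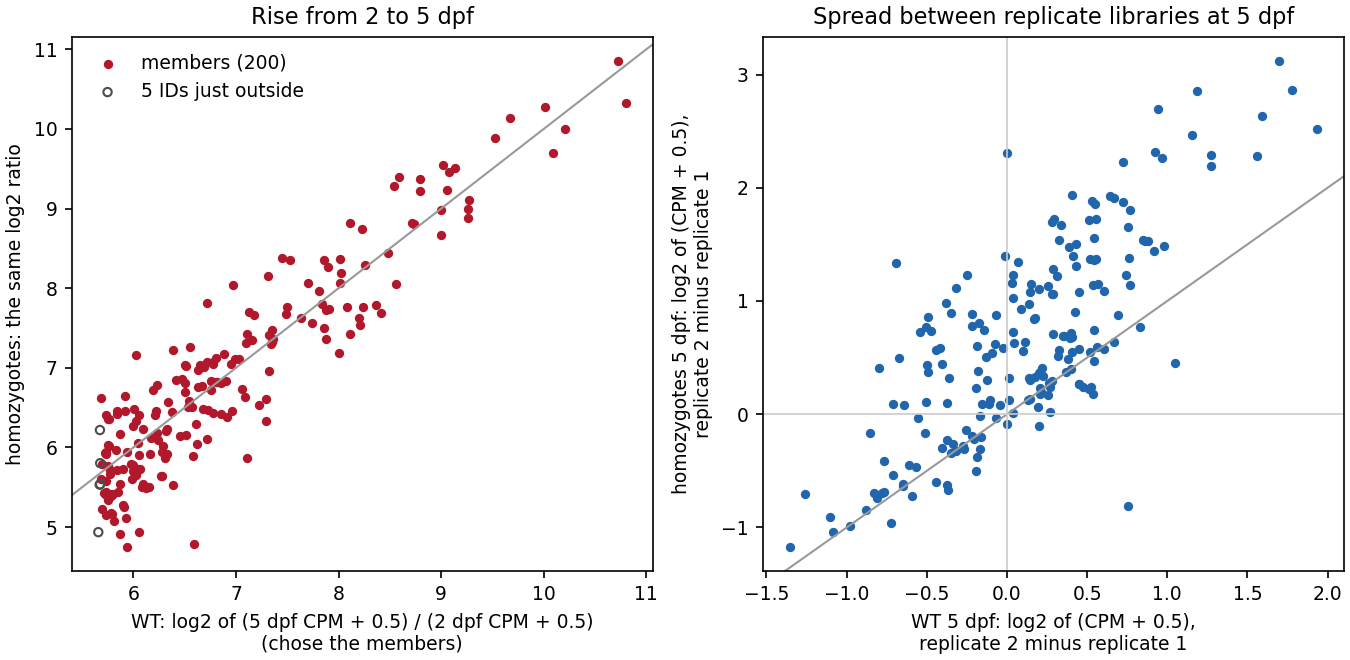
Left, log2 ratio of 5 to 2 dpf for each member in homozygotes (vertical axis) against WT (horizontal axis, the ratio that chose the members), with the 5 IDs just outside as open circles and a line of equality. Right, log2 of CPM plus 0.5 in replicate 2 minus that in replicate 1 at 5 dpf, in homozygotes (vertical) against WT (horizontal). On the left the members lie along the line, with a Pearson correlation of 0.927, and on the right 157 of 200 members lie above 0 on the vertical axis and 120 of 200 above 0 on the horizontal axis.

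Many members stood beside each other in the order of the IDs. With members ordered by ID and at most 5 places from one to the next, 76 of them fell into 29 runs and 124 stood alone. There were 18 runs of 2 members, 5 of 3, 5 of 4 and 1 of 5. Of the 400 places directly before or after a member, 50 (12.5%) held another member, where members are 0.550% of all IDs. No source used here states whether neighbouring IDs are neighbours in the genome. Neighbours that were not members had higher ratios than IDs farther away. Among 1272 such IDs within 5 places of a member, at a mean of at least 1 CPM in homozygotes, the median log2 ratio in homozygotes was 0.76, and 353 (27.8%) were over 2. Among the 18420 IDs farther away the median was 0.19, and 11.8% were over 2. Near-identical copies and genes that overlap could share reads, and neither could be checked without sequences or positions.

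The 6 runs of 4 or more members held 25 members. The run with the most reads spanned 7 places and held ranks 19, 9, 91 and 125. It summed to 16118 and 16087 CPM in homozygotes and 20927 and 20732 CPM in WT at 5 dpf, against 35.6 and 31.7 CPM in homozygotes, 31.4 and 49.4 CPM in heterozygotes, and 40.5 and 44.4 CPM in WT at 2 dpf. The homozygous sums at 5 dpf lay below both WT sums. The run of 5 members, also over 7 places, held ranks 30, 4, 164, 3 and 13. It summed to 5919.5 and 5084 CPM in homozygotes and 4990.4 and 4214 CPM in WT at 5 dpf, and to 6.42 and 5.82 CPM in homozygotes, 5.22 and 5.22 CPM in heterozygotes, and 3.74 and 3.68 CPM in WT at 2 dpf. Here the homozygous sums were above both WT sums at both ages. Within this run rank 3 held most of the reads, and rank 164 stood apart at 25.8 and 14.5 CPM in homozygotes and 21.7 and 36.9 CPM in WT.

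In the run of ranks 141, 171, 33 and 82, over 7 places, the libraries of 5 dpf differed widely. It summed to 143 and 1007 CPM in homozygotes and 272 and 662 CPM in WT at 5 dpf, and to between 0.607 and 1.41 CPM in the libraries of 2 dpf. All 4 of its members were higher in replicate 2, by 5.02-fold to 8.92-fold in homozygotes and 2.25-fold to 3.28-fold in WT. The run of ranks 116, 176, 110 and 98 summed to 393 and 579 CPM in homozygotes, against 625 and 778 CPM in WT, without overlap. The run of ranks 100, 123, 39 and 24 did likewise, at 2649 and 2919 CPM in homozygotes, against 3422 and 3956 CPM in WT. The run of ranks 10, 160, 50 and 95 overlapped, at 1452 and 1836 CPM in homozygotes, against 1481 and 1509.6 CPM in WT. No sum was tested, and how often sums of other IDs lay without overlap was not counted. The WT libraries of 5 dpf also chose the members, which favours lower sums in homozygotes.

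**Figure D4:**
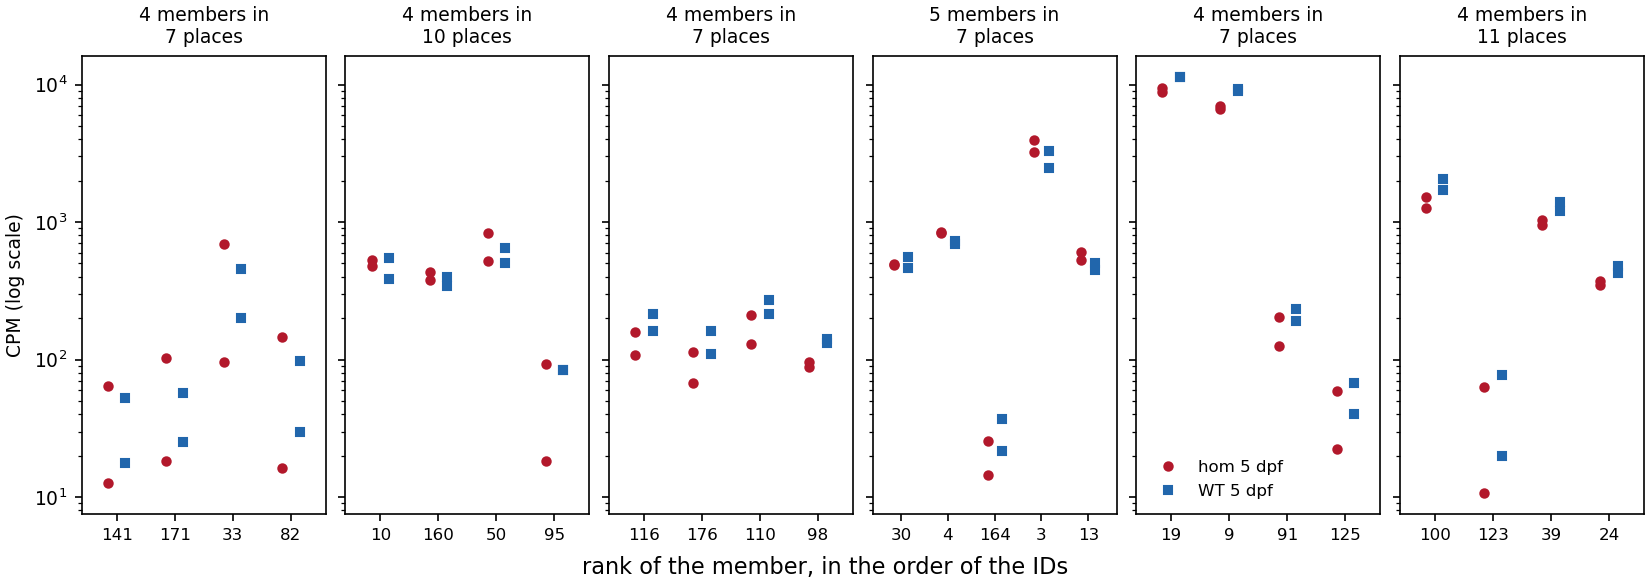
CPM at 5 dpf on a log scale for the members of the 6 runs of 4 or more, each panel a run and each position a member in the order of the IDs, with homozygous libraries as red circles left of WT libraries as blue squares. In the run of ranks 141, 171, 33 and 82 the homozygous libraries lie on either side of both WT libraries in each member, and in the run of ranks 19, 9, 91 and 125 the first 2 members hold most of the reads.

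At 5 dpf no member was called between homozygotes and WT in a fit of the group means. All 200 members were tested, 0 were called by edgeR's quasi-likelihood test at an adjusted p under 0.05 over 23654 IDs, and 0% of all IDs were. DESeq2's Wald test of the group means also called 0 members, and it called 0.00846% of all IDs tested. A fit that held the replicate number as a block gave other counts, which stand in the section on how the results depend on the processing. The median log2 fold change of the members was -0.01, as was that of all IDs tested, with 98 members above 0 and 102 below and a range of -1.23 to 0.76. At an unadjusted p under 0.05, 16 members (8%) were lower in homozygotes, against 0.854% of all IDs tested, and 1 member (0.5%) was higher, against 0.321%. The WT libraries of 5 dpf also chose the members, so that an ID that happened to be high in them was more likely to be chosen, and the count of lower members leans that way.

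The count of 16 depended on single libraries. It was 85 (42.5%) without homozygous replicate 2, where 4.31% of all IDs tested in that fit were lower. It was 7 (3.5%) without homozygous replicate 1, against 0.383% of all IDs, and 10 (5%) without WT replicate 2, against 0.462%. Homozygous replicate 1 lay below both WT libraries in 148 members (74%, against 34.8% of the 20382 IDs at 1 CPM or more), while homozygous replicate 2 lay above both in 87 (43.5%, against 27.4%). In 70 members replicate 1 was below and replicate 2 above both WT libraries, and 10.3% of those IDs had this order. When the list was ranked in homozygotes instead, a choice made after seeing the data, 11 of its 200 IDs were lower and 3 higher at an unadjusted p under 0.05, with a median of 0.08. That ranking leans the other way, towards IDs high in the homozygous libraries of 5 dpf. The summed level at 5 dpf was 0.895 times as high in homozygotes as in WT (117179 ± 13683 and 130957 ± 8484 CPM, SD, n = 2 each), and the libraries overlapped.

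In the fit of the group means, the members with the lowest fold change at an unadjusted p under 0.05 were ranks 157 and 102. The fit with the replicate number as a block called both, as given in the section on how the results depend on the processing. The values below are from the fit of the group means. Rank 157 (LL0000000885) had 15.9 and 11.9 CPM in homozygotes and 40.9 and 23.8 CPM in WT at 5 dpf, with at most 3 counts in each library of 2 dpf. Its log2 fold change was -1.23 (SE 0.31, unadjusted p = 0.00726, adjusted p = 1.00, edgeR). Rank 102 (LL0000012552) had 15.3 and 32.4 CPM in homozygotes and 45.8 and 56.1 CPM in WT at 5 dpf, a log2 fold change of -1.11 (SE 0.34, unadjusted p = 0.0171, adjusted p = 1.00, edgeR). At 2 dpf rank 102 was at 0.565 and 0.191 CPM in homozygotes, 0.260 and 0 CPM in heterozygotes, and 0.0693 and 0 CPM in WT. Its homozygous libraries thus lay below both WT libraries at 5 dpf and above both at 2 dpf. It had too few counts to be tested at 2 dpf, and the choice of members by WT favours this order. The one member that was higher at this threshold, rank 150, had 305 and 433 CPM in homozygotes and 249 and 228 CPM in WT (log2 fold change 0.61, unadjusted p = 0.0278, adjusted p = 1.00, edgeR). In each of these 3 members the groups did not overlap. They were picked by their unadjusted p, which favours that order, and its share over all IDs was not counted.

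**Figure D5:**
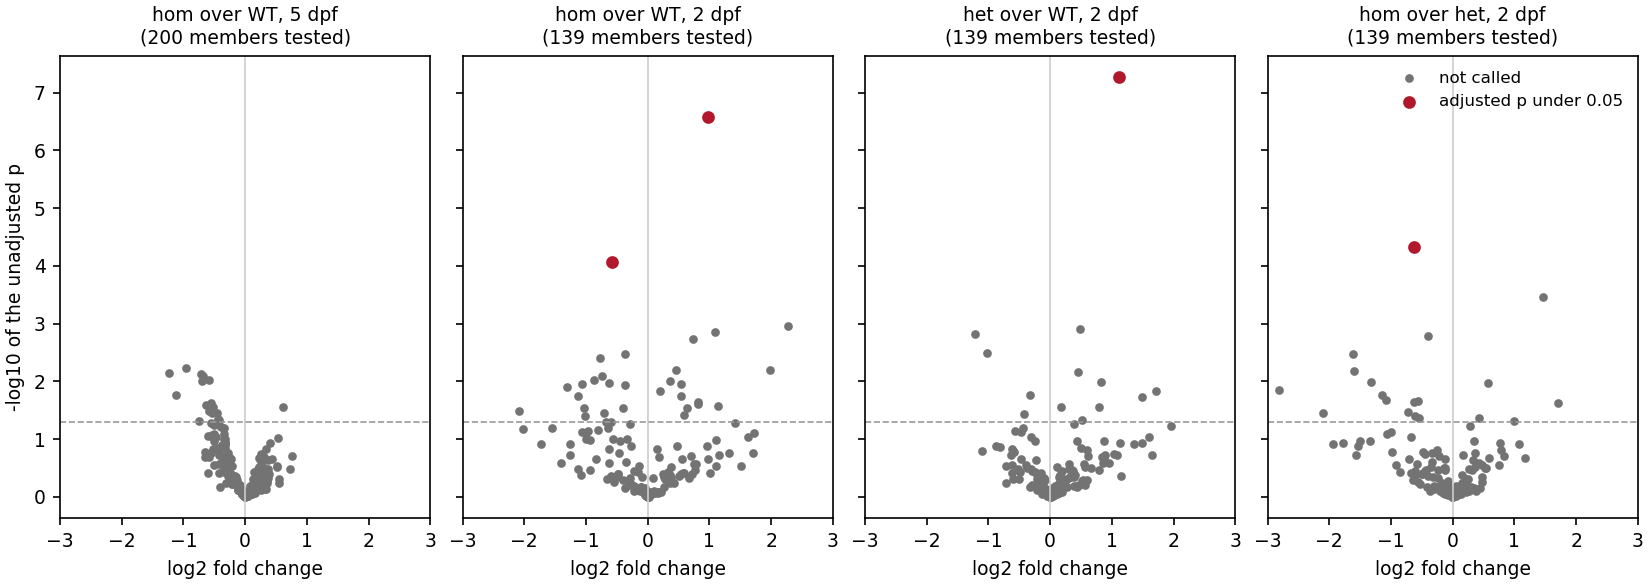
Log2 fold change (horizontal) and -log10 of the unadjusted p (vertical, edgeR's quasi-likelihood test) of every member tested in the 4 genotype comparisons, with a dashed line at the threshold of 0.05 and members called at an adjusted p under 0.05 as large red points. No point is red at 5 dpf, and the 2 dpf panels hold 2 red points for homozygotes over WT, 1 for heterozygotes over WT and 1 for homozygotes over heterozygotes.

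At 2 dpf, 139 members had enough counts to be tested and 61 did not. By edgeR's quasi-likelihood test, fitted over the 3 genotypes and 22383 IDs, 2 members (1.44%) were called between homozygotes and WT, against 1.62% of all IDs tested. Between heterozygotes and WT 1 member (0.719%) was called, against 0.384%, and between homozygotes and heterozygotes 1 (0.719%), against 0.617%. All 4 calls fell on ranks 62 and 182. The median log2 fold change of the members was -0.03 for homozygotes over WT, 0.07 for heterozygotes over WT and -0.10 for homozygotes over heterozygotes, where that of all IDs was 0.00 in each. The summed level of the 200 members was 0.933 times as high in homozygotes as in WT (624 ± 4.05 and 669 ± 13.7 CPM, SD, n = 2 each), 1.03 times as high in heterozygotes as in WT, and 0.902 times as high in homozygotes as in heterozygotes (692 ± 32.9 CPM, SD, n = 2). Both homozygous sums lay below both WT sums and both heterozygous sums. Much of this gap lay in the run of ranks 182, 115 and 150. That run alone summed to 92.8 and 88.3 CPM in homozygotes and 129 and 133 CPM in WT. The genotype comparisons share libraries, and the difference between them was not tested.

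Rank 62 was higher in both mutant genotypes than in WT at 2 dpf. It had 43.1 and 43.5 CPM in homozygotes, 52.3 and 43.3 CPM in heterozygotes, and 23.7 and 20.8 CPM in WT, and the WT libraries lay apart from the other 4. The log2 fold change was 0.98 for homozygotes over WT (SE 0.11, adjusted p = 0.000154, edgeR) and 1.11 for heterozygotes over WT (SE 0.11, adjusted p = 0.000296, edgeR), and -0.13 for homozygotes over heterozygotes (SE 0.10, adjusted p = 0.656, edgeR). Both calls held with each library left out in turn, but neither held in one fit of all 10 libraries, where the log2 fold change was 0.97 for homozygotes (adjusted p = 0.382, edgeR) and 1.11 for heterozygotes (adjusted p = 0.923, edgeR). Of all IDs, that fit called 0% for homozygotes over WT and 0.00403% for heterozygotes over WT. At 5 dpf rank 62 stood at 5172 and 3351 CPM in homozygotes and 4021 and 3102 CPM in WT, and the genotypes overlapped. The WT libraries of 2 dpf helped to choose this member, and a low level there favours the choice.

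Rank 182 was lower in homozygotes than in both other genotypes at 2 dpf. It had 59.6 and 57.6 CPM in homozygotes, 103.7 and 78.3 CPM in heterozygotes, and 87.1 and 90.7 CPM in WT. The log2 fold change was -0.59 for homozygotes over WT (SE 0.11, adjusted p = 0.0120, edgeR) and -0.63 for homozygotes over heterozygotes (SE 0.11, adjusted p = 0.0154, edgeR). The adjusted p was 0.0770 over WT without WT replicate 1 and 0.131 without WT replicate 2, and it was 0.0664 over heterozygotes without homozygous replicate 1. In one fit of all 10 libraries it was 0.423 over WT and 0.776 over heterozygotes (edgeR), at log2 fold changes of -0.59 and -0.63. At 5 dpf rank 182 had 4359.7 and 5368 CPM in homozygotes and 5076 and 4649.7 CPM in WT, with overlap.

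Rank 182 belonged to a run of 3 members over 5 places with ranks 115 and 150. Rank 115 had the same order at 2 dpf, with 30.6 and 29.1 CPM in homozygotes, 43.7 and 35.8 CPM in heterozygotes, and 38.1 and 39.5 CPM in WT, but was not called (log2 fold change -0.36 over WT, adjusted p = 0.107, and -0.40 over heterozygotes, adjusted p = 0.119, edgeR). Rank 150, the third, was the member with a higher value at 5 dpf, and at 2 dpf it had 2.56 and 1.62 CPM in homozygotes, 2.54 and 2.79 CPM in heterozygotes, and 3.33 and 3.01 CPM in WT. Together the run summed to 92.8 and 88.3 CPM in homozygotes, 149.9 and 117 CPM in heterozygotes, and 129 and 133 CPM in WT at 2 dpf. At 5 dpf it summed to 8049 and 9421 CPM in homozygotes and 9106 and 7793 CPM in WT.

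At an unadjusted p under 0.05 in the 2 dpf fit, 15 members (10.8%) were higher and 15 (10.8%) lower in homozygotes than in WT, against 6.88% and 6.97% of all IDs tested. Between heterozygotes and WT, 9 members (6.47%) were higher and 4 (2.88%) lower, against 5.75% and 5.81%. Between homozygotes and heterozygotes, 5 members (3.6%) were higher and 14 (10.1%) lower, against 6.16% and 6.37%. The members' log2 fold changes were less precise than those of other genes at this age, with a median SE of 0.45 against 0.17 over all IDs for homozygotes over WT, and at 5 dpf it was 0.28 against 0.25. The number of members called between homozygotes and WT was 5 without either heterozygous library, 4 without homozygous replicate 2 and 1 without either WT library, where 2.36% and 2.43%, 2.11%, and 0.454% and 0.437% of all IDs were called. For heterozygotes over WT it was 2 without heterozygous replicate 2, against 0.777% of all IDs. For homozygotes over heterozygotes it was 4 without heterozygous replicate 2, 2 without heterozygous replicate 1 or homozygous replicate 2, and 0 without homozygous replicate 1, with between 0.33% and 1.72% of all IDs called in these fits.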

How the data were processed

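RNA from 10 pools was sequenced, 2 per group. Per the submitters' processing notes, reads were aligned with STAR 2.7.3a to GRCz11, and the authors deposited raw counts per gene ID for each library. The strand setting of the counting is not given in the sources used here, so overlapping and antisense genes are uncertain. From these counts, CPM was computed by the library sum, and the 200 members were taken by the ratio stated in the report with a pseudocount of 0.5 CPM. Genotypes were compared with edgeR 4.0.16 in R 4.3.3 (quasi-likelihood test, TMM scaling, filterByExpr, Benjamini-Hochberg adjustment over all IDs tested, called at an adjusted p under 0.05). One fit held the 6 libraries of 2 dpf, one the 4 libraries of 5 dpf and one the 4 homozygous libraries. DESeq2 1.42.0 was an alternative, beside other scalings, filters, fits and pseudocounts, a replicate block, and leaving out each library in turn. By rule, IDs are printed for ranks 1 and 2 and for the 2 members with the lowest log2 fold change at 5 dpf among those with an unadjusted p under 0.05. Other members are given by rank, namely ranks 1 to 10, those with the most reads, those at the end of the ranking, those called, and runs of 4 or more. Ranks 67, 82, 94, 150, 164 and 173 and the run of 3 were singled out after their values were seen. The members and lists were chosen with earlier results of these data known. Total counts were between 30070283 and 47797511 per library.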

Additional observations from a re-analysis of the deposited data

Results flagged for a closer look

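Of 32 values looked at (25 members, 6 runs and 1 sum), 3 had both homozygous libraries on one side of both WT libraries at 5 dpf and on the other side at 2 dpf. The share of all IDs with such an order was not counted, so the number found says nothing particular about the members. In none of them was the difference between the ages tested, and values are log2 of the ratio of mean CPM plus 0.5, homozygotes over WT. The member ranked 102 was at -1.08 at 5 dpf and 0.72 at 2 dpf, where it had at most 17 counts in a library. The member ranked 199 was at 0.41 at 5 dpf (156 and 228 CPM in homozygotes, 149 and 139.8 CPM in WT) and -0.52 at 2 dpf (1.496 and 1.43 CPM in homozygotes, 1.99 and 2.64 CPM in WT). The run of ranks 100, 123, 39 and 24 was at -0.41 at 5 dpf and 0.05 at 2 dpf (25.8 and 24.98 CPM in homozygotes, 24.2 and 24.7 CPM in WT). The WT libraries chose the members by a high level at 5 dpf and a low level at 2 dpf. That choice favours the order seen in rank 102 and in this run, while rank 199 had the opposite order.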

How the results depend on the processing

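The cause was not tested for any change given here. Members called between homozygotes and WT at 2 dpf (2) numbered 4 of the 82 given an adjusted p by DESeq2's Wald test. It called 2.29% of all IDs tested, a share whose base includes IDs given no adjusted p. The members called numbered 10 of 193 tested with no filter on low counts (3.01% of all IDs) and 0 in one fit of all 10 libraries (0%). In a fit of those groups alone they numbered 4 (2.33%). At an unadjusted p under 0.05 they numbered 30, with 6.88% of all IDs higher and 6.97% lower. Between heterozygotes and WT (1) they numbered 4 of 193 tested with no filter (1.59% of all IDs) and 0 in the fit of 10 libraries (0.00403%). Unadjusted they numbered 13, with 5.75% of all IDs higher and 5.81% lower. Between homozygotes and heterozygotes (1) they numbered 2 of the 29 given an adjusted p by DESeq2 (1.06% of all IDs, on the same base). With no filter they numbered 5 of 193 tested (1.96%). They numbered 0 in the fit of 10 libraries (0%) and 0 in a fit of those groups alone (0.267%). Unadjusted they numbered 19, with 6.16% of all IDs higher and 6.37% lower. In the fit of those groups alone the comparison of rank 182 with heterozygotes had an adjusted p of 0.0514 (edgeR).

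Between homozygotes and WT at 5 dpf, 0 members were called with any library left out and 17 at an unadjusted p under 0.05. The replicate number as a block gave 3 calls, all lower (ranks 67, 157 and 102, adjusted p = 0.0150, 0.0150 and 0.0488, edgeR), against 0.0423% of all IDs. The labels do not say that a number marks a shared clutch or day. The differences of replicate 2 from replicate 1 correlated between genotypes at 0.50 over all IDs at 5 dpf. At 2 dpf the correlations were between -0.02 and -0.00. There the block left the members called at 2 (homozygotes over WT), 1 (heterozygotes over WT) and 1 (homozygotes over heterozygotes). Of all IDs tested it called 1.35%, 0.228% and 0.491% in that order, against 1.62%, 0.384% and 0.617% without it. The 16 members lower at an unadjusted p under 0.05 numbered 60 (30%) with the block, against 5.06% of all IDs, 25 (12.5%) in the fit of 10 libraries, against 1.01%, and 7 to 85 with a library left out, alternatives chosen after seeing the data.

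Between homozygotes at 5 and 2 dpf, 106 of 106 members tested were called higher with at least 10 counts in every library. In that fit 63.4% of all IDs were called, higher or lower. Since the members were chosen by their rise in WT, the count says nothing beyond the choice. A pseudocount of 0.1 CPM kept 157 of the 200 members, 1 CPM kept 177, TMM scaling 197, and leaving out a WT library 180 to 191. With directly adjacent IDs only, 46 members were in runs, and within 10 places 97. The summed level in homozygotes over WT at 5 dpf was 0.888 with TMM, 0.945 without the 5 members with the most counts and 0.821 to 0.969 with a library left out. The 61 members not tested at 2 dpf had too few counts for the filter.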
